A study of Mus musculus with 8 samples.

Results

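The collagen alpha chain genes were described in colonic epithelial cells of antibiotic-treated mice that carried the wild type or a mutant of Bacteroides thetaiotaomicron (B. theta), a common gut symbiont. All probe sets whose annotation names exactly 1 gene of the form Col, a number, a, and a number were taken, and where a gene had several, the one that varied most across the 8 arrays (largest SD) represented it, a choice that favors probe sets with some difference. This gave 42 genes with 82 probe sets, out of 18193 genes and 45037 probe sets on the array. The male C57BL/6 mice were kept specific pathogen free, treated with metronidazole and ciprofloxacin, colonized at 8 wk of age, and sampled at 12 wk, 4 wk after colonization. The BTWT group (n = 4 mice) received the wild-type strain and the BTΔMAFF group (n = 4 mice), written BTDMAFF in the labels, received the mutant that lacks maffC and maffD, genes of Mucus-Associated Functional Factor (MAFF). The mice of both groups were wild type. Living cells with the epithelial marker EpCAM and without the leukocyte marker CD45 were sorted, so that a small share of other cells can remain, and 1 array was hybridized per mouse.

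Collagens are trimers of alpha chains wound into a triple helix, with glycine at regular steps along each chain. Fibril-forming collagens build the fibers of the connective tissue and are mostly made by fibroblasts, whereas type IV collagen forms the sheet-like network of the basement membrane under the epithelium. Epithelial cells themselves are known to make the transmembrane collagen XVII of hemidesmosomes and the type VII collagen of anchoring fibrils. Fibril-associated, beaded-filament, and short-chain collagens link or surround these structures.

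The deposited values are on the log2 scale with the median of the 8 arrays set to 0 for each probe set, so they hold differences between mice and no level, and how far a chain lay above background cannot be had. Of the 42 genes, 22 stayed within 0.1 of the array's own median (the median over all probe sets of that array) in all 8 mice. The same held for 32.5% of all genes taken by the same choice of probe set, against 52.4% of the collagens. The median SD over the 8 mice was 0.060 for the collagens and 0.203 for all genes. The 22 flat genes include all but 1 of the 5 beaded-filament chains, 6 of 9 fibril-associated chains, and 3 of 4 transmembrane chains. Col6a2, a chain of type VI collagen, had the smallest SD of the family, 0.016, and Col8a1 had the largest, 1.62. In a principal component analysis, BTWT replicate 2 and BTΔMAFF replicate 4 had first scores of 58.1 and 47.0, against -36.8 to -6.40 in the remaining mice. These arrays also had the highest medians, at 0.038 and 0.041. Of the 20 collagens that left the 0.1 limit, 5 did so most strongly in BTΔMAFF replicate 4, all upward, and none in BTWT replicate 2. As a sign of RNA quality, the Gapdh control probes at the 3′ end minus those at the 5′ end gave -0.11 in BTWT and 0.0054 in BTΔMAFF (two-sided exact permutation test, p = 0.314).

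**Figure D1:**
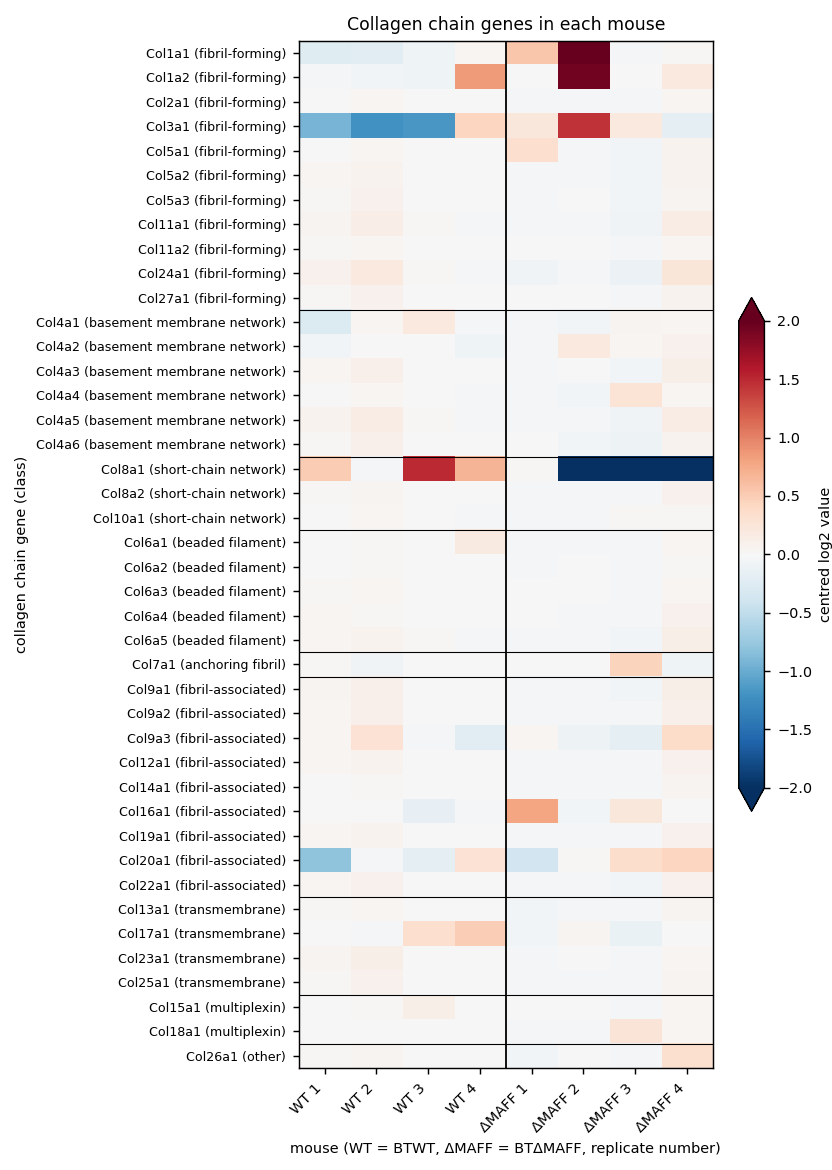
Centred log2 value of the 42 collagen chain genes (rows, by class) in each of the 8 mice (columns, BTWT left of the line, BTΔMAFF right). Color runs from -2 to 2, and values beyond take the end color. Most rows are near 0 throughout, while Col8a1, Col1a1, Col1a2, and Col3a1 hold the strongest colors.

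Of the 42 collagen genes, 1 was higher in BTWT and none was lower by limma before adjustment (threshold 0.05). The background for this count is 2.35% of 18193 genes higher and 3.37% lower. The 1 gene, Col8a1, also passed a fold change of 2. Both thresholds were passed by 0.451% of all genes in that direction and by 0.473% in the other. Col3a1 was 2.2-fold lower in BTWT but missed the unadjusted threshold. Once p-values were adjusted over all 45037 probe sets, limma called 0 of the 42 genes and 0 probe sets in all. The methods' test likewise called 0 of the 42 after adjustment and 1 before it. Counted by probe set, 2 of the 82 were higher and 0 lower before adjustment, both of the Col8a1 gene, against 2.24% and 2.86% of all probe sets. Both the unadjusted threshold and a fold change of 2 were passed by 1 of the 82 upward, against 0.262% upward and 0.286% downward over all. None of the 82 had separate groups, against 1.27% and 1.56%. No collagen gene had groups without overlap, while 1.3% of all genes lay higher and 1.84% lower in every BTWT mouse. The family as a whole therefore had a share of calls near the background. Its median log2 difference, BTWT minus BTΔMAFF, was 0.02, the same to 2 decimals as the 0.02 over all genes. Of the 42 differences 28 were above 0, as were 66.85% of all genes, and the group means of the array medians differed by 0.018. With each array centred on its median, 24 were above 0 and 18 below. Nearest to the limit of 0.1 around the array median were Col23a1 inside it, with a largest deviation of 0.080, and Col15a1 and Col11a1 outside it, at 0.104 and 0.108.

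**Figure D2:**
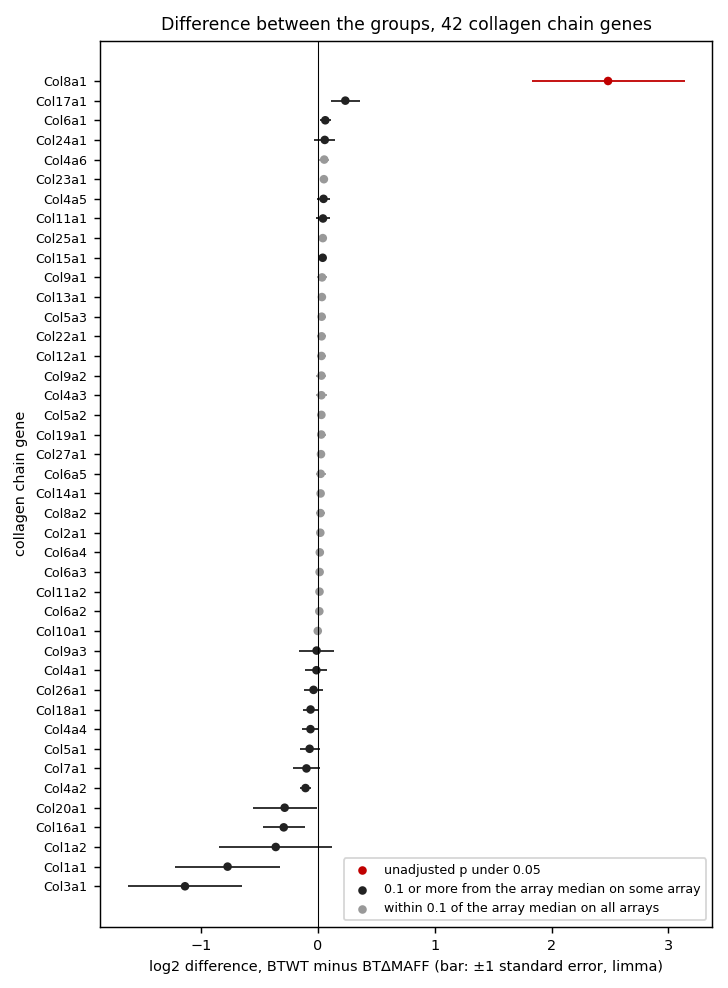
Log2 difference between BTWT and BTΔMAFF for the 42 collagen chain genes (points) with 1 standard error from limma on each side (bars). Red marks a gene past the threshold before adjustment, black a gene that left the 0.1 limit on at least 1 array, and gray the 22 flat genes. Col8a1 at 2.48 stands to the right, and Col3a1, Col1a1, and Col1a2 at -1.14, -0.77, and -0.36 lie lowest.

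Col8a1 encodes a chain of type VIII collagen, a short-chain network collagen known from vessel walls and the basement membrane under corneal endothelium. Its gene lies on chromosome 16 from 57624256 to 57754737 (GRCm38.p6). The 250 bases before the annotated start are shown because it was the 1 collagen called. They lie at chr16:57754738-57754987, minus strand, from RefSeq, and are written 5′ to 3′ with matches to the motifs searched in capitals.

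Col8a1: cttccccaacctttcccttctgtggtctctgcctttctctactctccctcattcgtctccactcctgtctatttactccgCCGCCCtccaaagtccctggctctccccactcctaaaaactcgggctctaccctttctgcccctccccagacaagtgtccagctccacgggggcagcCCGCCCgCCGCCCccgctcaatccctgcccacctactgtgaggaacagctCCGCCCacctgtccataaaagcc

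The capitals are 4 matches to GGGCGG, the GC box bound by Sp1, all read on the opposite strand, with the nearest beginning 23 bases before the start. Both strands were also searched for CCAAT, the CCAAT box. The TATA box was searched as TATAAA and the core of the AP-1 site as TGANTCA. None of these latter 3 motifs is in this window. GGGCGG is in 32.7% of the 32851 windows of this length in the table and in 21 of the 36 windows of 33 collagen genes.

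In BTWT mice Col8a1 was at 0.52, -0.028, 1.49, and 0.68 in replicates 1 to 4 on the centred log2 scale. In BTΔMAFF mice it was at 0.028, -2.004, -2.77, and -2.52. Replicates 2 to 4 of BTΔMAFF lay far below every BTWT mouse, but BTΔMAFF replicate 1 lay just above BTWT replicate 2, so that the groups overlapped by 1 pair of mice. The means were 0.67 ± 0.63 (SD, n = 4) and -1.82 ± 1.27 (SD, n = 4), a 5.59-fold higher value in BTWT (log2 difference 2.48, standard error 0.66, adjusted p = 0.579 from limma). The study also picked this gene on these same arrays, so its direction is not independent evidence. With single mice left out, the difference was between 2.17 and 3.10 and passed the unadjusted threshold each time.

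The chain has 2 more probe sets, and both gave smaller differences. The one with the smallest SD had a log2 difference of 0.22 and passed the unadjusted threshold (adjusted p = 0.828 from limma). On it, BTWT mice were at 0.35, 0.073, 0.33, and -0.006 and BTΔMAFF mice at -0.025, -0.027, -0.092, and 0.006. Here only BTWT replicate 4 fell within the range of the other group, and BTWT replicates 1 and 3 were highest. The other had a difference of 0.20 (standard error 0.18), with BTWT replicate 3 at 0.75, against -0.039 to 0.023 in the other BTWT mice and -0.063 to 0.074 in BTΔMAFF. The 3 probe sets thus pointed the same way with unequal sizes, and their mean gave a log2 difference of 0.97, which also passed before adjustment. Col8a2, the partner chain of type VIII collagen, stayed flat, between -0.011 and 0.054 in BTWT and -0.042 and 0.089 in BTΔMAFF (log2 difference 0.02). Col10a1, the third short-chain collagen, known from cartilage growth zones, had a log2 difference of -0.0022.

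**Figure D3:**
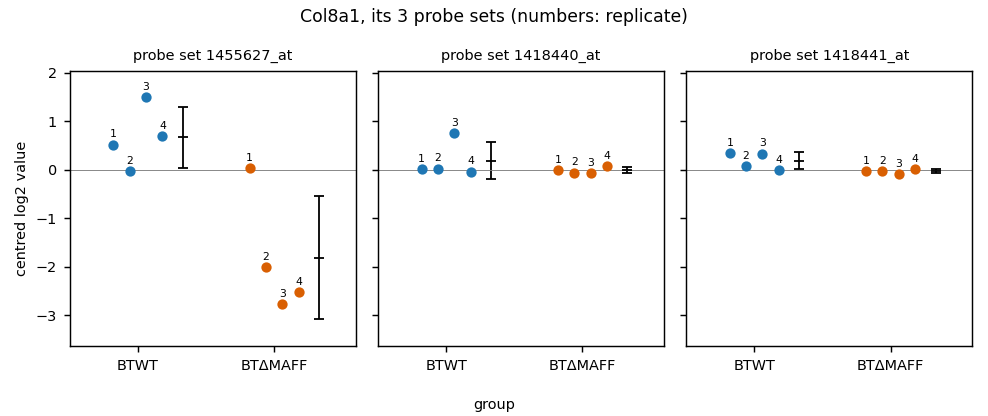
Centred log2 values of the 3 Col8a1 probe sets in each mouse (points, numbered by replicate), and bars for group means with their SD (n = 4). On the left probe set 3 BTΔMAFF mice lie between -2.77 and -2.004 and the fourth, replicate 1, at 0.028 among the BTWT mice, while values on the other probe sets spread far less.

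Among the 11 fibril-forming chains, 7 differences were above 0 and 4 below, none passed before adjustment, and 5 were flat. Type I collagen (Col1a1 and Col1a2) and type III collagen (Col3a1), the main fibers of the lamina propria, varied most. Col3a1 was at -0.93, -1.22, -1.17, and 0.43 in BTWT replicates 1 to 4 and at 0.23, 1.45, 0.19, and -0.19 in BTΔMAFF replicates 1 to 4. Thus 3 of 4 BTWT mice lay below all BTΔMAFF mice, and BTWT replicate 4 was higher than all of them but BTΔMAFF replicate 2. The log2 difference was -1.14 (standard error 0.49, adjusted p = 0.828 from limma) and just missed the unadjusted threshold. It passed that threshold without BTWT replicate 4, at -1.52, without BTΔMAFF replicate 4, at -1.34, and with array weights, at -1.92, which gave BTΔMAFF replicate 2 a weight of 4.36. It also passed with the SD filter, at -1.14, and with averaged probe sets at -0.56. Without BTΔMAFF replicate 2 it was -0.80 and did not pass.

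Col1a1 was at -0.245, -0.22, -0.092, and 0.040 in BTWT and at 0.56, 2.03, -0.030, and 0.030 in BTΔMAFF. The groups overlapped, and BTΔMAFF replicate 2 was by far the highest mouse. The log2 difference was -0.77 (standard error 0.45) and did not pass. Without BTΔMAFF replicate 2 it was -0.31, and with array weights it was -1.54 and passed before adjustment. Col1a2 was at -0.042, -0.052, -0.090, and 0.86 in BTWT and at 0.0039, 1.93, -0.0039, and 0.19 in BTΔMAFF. Again BTΔMAFF replicate 2 was highest, and BTWT replicate 4 came next. Its log2 difference was -0.36 (standard error 0.48) and changed to 0.11 without BTΔMAFF replicate 2 and to -1.22 with array weights, passing in neither. The second probe sets of Col1a1 and Col3a1 did not repeat the spread: they had log2 differences of -0.0072 and 0.02, and of the 2 other probe sets of Col1a2 one reached 0.16 in BTΔMAFF replicate 2 and the other -0.019.

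The 250 bases before the starts of Col1a2 and Col3a1 are shown because both genes were highest in the same mouse; the start of Col1a1 is not in the table used here. They lie at chr6:4505368-4505617 and chr1:45311288-45311537 (GRCm38.p6, both plus strand, RefSeq), with matches in capitals as above.

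Col1a2: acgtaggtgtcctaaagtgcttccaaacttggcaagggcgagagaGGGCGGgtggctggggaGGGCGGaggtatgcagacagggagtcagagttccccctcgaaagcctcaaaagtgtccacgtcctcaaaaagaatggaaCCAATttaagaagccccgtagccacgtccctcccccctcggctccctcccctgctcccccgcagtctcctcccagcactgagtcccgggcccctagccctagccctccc

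Col3a1: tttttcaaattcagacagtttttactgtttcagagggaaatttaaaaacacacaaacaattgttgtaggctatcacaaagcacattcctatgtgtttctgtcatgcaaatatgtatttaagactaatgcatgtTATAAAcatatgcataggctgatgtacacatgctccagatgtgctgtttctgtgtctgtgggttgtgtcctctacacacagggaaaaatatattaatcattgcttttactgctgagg

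The Col1a2 window holds 1 CCAAT, beginning 109 bases before the start, and 2 GGGCGG, at 205 and 188 bases. The Col3a1 window holds 1 TATAAA, at 117 bases, and neither of the motifs found in Col1a2. CCAAT is in 33.8% and TATAAA in 12.4% of all windows, and in 13 and 5 of the 36 collagen windows, while TGANTCA is in 6.75% and in 1 collagen window.

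Markers of fibroblasts, the cells that make most fibrillar collagen, did not move as 1 group. Dcn, which encodes the fibril-binding proteoglycan decorin, was at -0.87, -1.63, -0.51, and 1.18 in BTWT and at 0.48, 1.80, 0.0048, and -0.0048 in BTΔMAFF. Dpt, which encodes the matrix protein dermatopontin, was at 3.13 in BTΔMAFF replicate 2 and at 1.498 in BTWT replicate 4. Both genes thus had their highest value in BTΔMAFF replicate 2 and the next in BTWT replicate 4, the order seen for Col1a2 and Col3a1. The other Dcn probe set did not repeat this order. It was at -0.011 and -0.0073 in these mice and had a log2 difference of 0.02. Vim, an intermediate filament of mesenchymal cells, was highest in replicate 1 of each group, at 1.11 and 1.18. Fap, a protease of activated fibroblasts, was highest in BTWT replicate 3, at 1.06, with a log2 difference of 0.42. Of 12 fibroblast markers 11 were measured, 5 of them flat. Their log2 differences were above 0 for 8 of 11, as were 66.85% of all genes, and the 5 flat markers were among these 8. Dcn, Dpt, and Vim were below 0, at -1.03, -0.91, and -0.62, as were Col1a1, Col1a2, and Col3a1. Pdgfrb, Fap, and Twist1, which were not flat either, were above 0, at 1.16, 0.42, and 0.075. The mean value of the markers ranged from -0.27 to 0.37 in BTWT and from -0.10 to 0.48 in BTΔMAFF. The top of each range was in BTWT replicate 4 and BTΔMAFF replicate 2. Before adjustment 1 of the markers was higher in BTWT and none lower: Pdgfrb, a receptor of fibroblasts and pericytes, at a log2 difference of 1.16 (standard error 0.33). It was at -0.37 in BTΔMAFF replicate 2, and its other probe set had a log2 difference of -0.00040. The part of stromal cells in the fibril-forming values was not tested, and in sorted pools fewer cells of a type and less RNA per cell cannot be told apart. Since the values hold no level, none of the markers can be called absent.

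**Figure D4:**
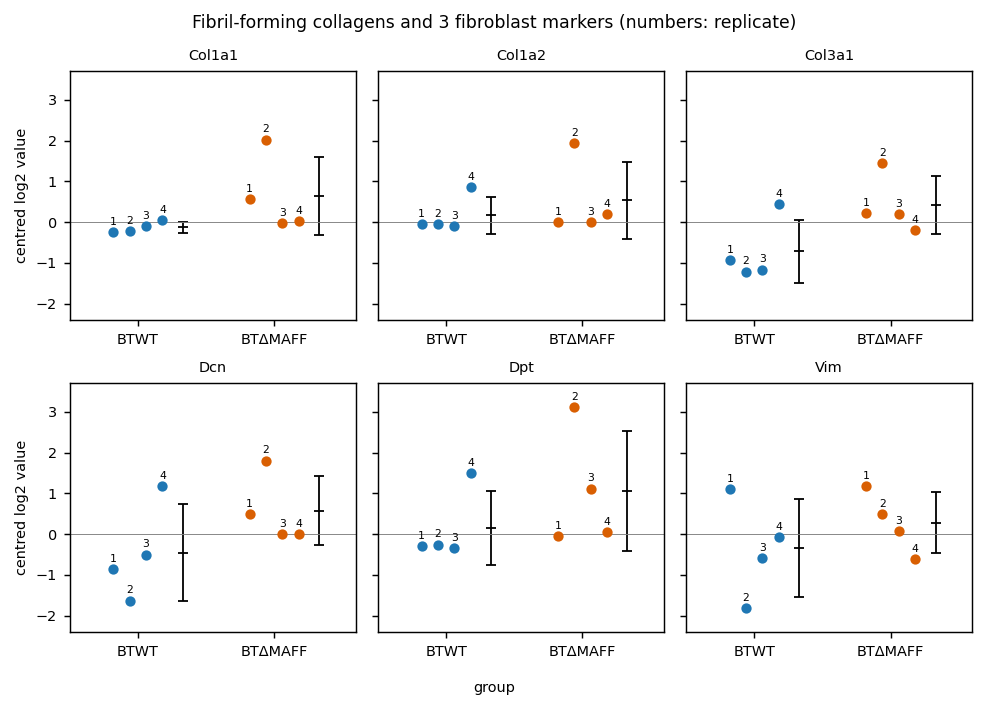
Centred log2 values of Col1a1, Col1a2, Col3a1, and the fibroblast markers Dcn, Dpt, and Vim in each mouse (points, numbered by replicate), and bars for group means with their SD (n = 4). BTΔMAFF replicate 2 is the highest mouse for all but Vim, and BTWT replicate 4 is the highest BTWT mouse for all but Vim.

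Smooth muscle, endothelial, leukocyte, and enteric glia markers were mostly flat. Of 6 smooth muscle and 6 endothelial markers 5 each were flat, as were 7 of 8 leukocyte markers and 3 of 3 measured glia markers, and none of these passed before adjustment. Acta2, Pecam1, and Ptprc had log2 differences of 0.02, -0.22, and -0.0067. The 1 leukocyte marker that was not flat, Csf1r, a receptor of macrophages, had a log2 difference of -0.52 and was at 1.75 in BTΔMAFF replicate 3, where Pecam1 was at 0.88. Of 10 epithelial markers none was flat, and 3 were lower in BTWT before adjustment, against 3.37% of all genes. They were Vil1, the brush border protein villin (-0.40), Krt20 (-0.32), and Krt19 (-0.22), both keratins of the gut lining. Krt19 missed the threshold under 8 alternatives, with values from -0.23 to -0.16, and Krt20 under 1, the SD filter. Epcam, the marker of the sort, had a log2 difference of 0.10 (standard error 0.23). Their part in the collagen values was not tested.

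The 6 type IV chains are laid out in the genome as 3 pairs of neighbors that are transcribed away from each other. In the RefSeq annotation (GRCm38.p6), Col4a1 and Col4a2 on chromosome 8 share 85 bases at their 5′ ends and Col4a3 and Col4a4 on chromosome 1 share 114, while Col4a5 and Col4a6 on the X chromosome lie 1274 bases apart. Of the 6 chains, 3 differences were above 0 and 3 below, and none passed before adjustment. Col4a1 and Col4a2, the chains of most basement membranes, did not share a pattern. Col4a1 was at -0.27, 0.035, 0.20, and -0.035 in BTWT and at -0.039, -0.060, 0.047, and 0.038 in BTΔMAFF. The BTWT mice enclosed all BTΔMAFF mice (log2 difference -0.014, standard error 0.094). Col4a2 was at -0.047, -0.0050, 0.0050, and -0.078 in BTWT and at -0.018, 0.19, 0.047, and 0.084 in BTΔMAFF. All but replicate 1 of BTΔMAFF lay above every BTWT mouse, but by a small amount (log2 difference -0.11, standard error 0.048). It missed the unadjusted threshold and passed it with quantile normalization, at -0.14, with arrays centred on their median, at -0.13, without BTΔMAFF replicate 1, at -0.14, and with array weights, at -0.15. Without BTΔMAFF replicate 2 it was -0.069 and did not pass.

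The other type IV chains belong to specialized basement membranes such as those of the kidney. Col4a4 was near 0 except in BTΔMAFF replicate 3, at 0.28, where its neighbor Col4a3 was at -0.056. The other Col4a4 probe sets were at -0.061 and -0.043 in that mouse. Col4a3 was highest in BTΔMAFF replicate 4 and BTWT replicate 2, at 0.11 and 0.098, and so were Col4a5 at 0.15 and 0.14 and Col4a6 at 0.069 and 0.10. These are the arrays with the highest medians. The log2 differences of Col4a3, Col4a4, Col4a5, and Col4a6 were 0.03, -0.065, 0.05, and 0.05, with standard errors of 0.044, 0.072, 0.059, and 0.043.

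**Figure D5:**
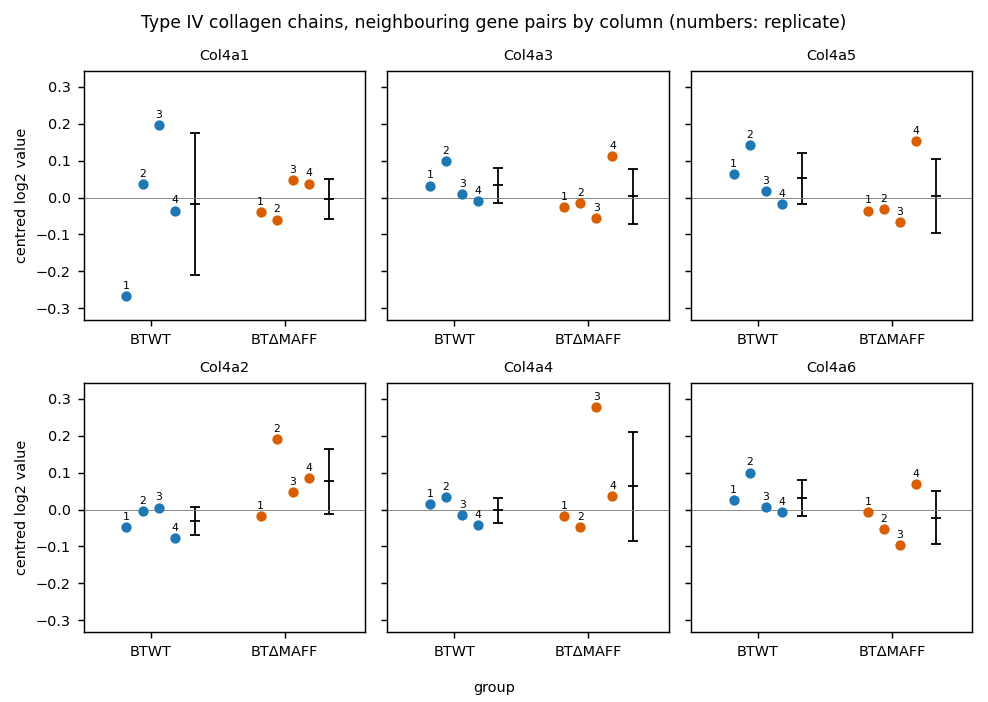
Centred log2 values of the 6 type IV collagen chains in each mouse (points, numbered by replicate), with neighboring genes one above the other and bars for group means with their SD (n = 4). The whole axis spans less than 1 log2 unit, and the groups overlap for every chain.

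Of the collagens tied to the epithelial base, Col17a1 encodes the transmembrane collagen of hemidesmosomes. It was at -0.00075, -0.024, 0.33, and 0.50 in BTWT and at -0.062, 0.058, -0.13, and 0.00075 in BTΔMAFF. BTWT replicates 3 and 4 lay above all other mice, and the other BTWT mice lay within the BTΔMAFF range. The log2 difference was 0.23 (standard error 0.13), and missed the unadjusted threshold. It passed without BTWT replicate 2, at 0.31, and with array weights, at 0.27, and was 0.135 without BTWT replicate 4 and 0.19 without BTWT replicate 3. Col7a1, the chain of anchoring fibrils, was between -0.088 and 0.022 in all mice but BTΔMAFF replicate 3, at 0.44. Col18a1, a basement membrane collagen that carries the endostatin domain, was also highest in that mouse, at 0.26, and was otherwise between -0.032 and 0.039. The other Col18a1 probe set did not repeat this and was at -0.012 in that mouse. Col7a1 and Col18a1 had groups that overlapped, with log2 differences of -0.10 and -0.064, which turned to 0.02 and 0.0021 without BTΔMAFF replicate 3. BTΔMAFF replicate 3 was also high for Col4a4, though only on the probe set that represented it. The macrophage marker Csf1r and the endothelial marker Pecam1 were highest in that mouse too. The other endothelial markers, all flat, were at their lowest there, between -0.057 and -0.019. This array also had the lowest median, -0.030. Among the other leukocyte markers, all flat, Cd68 and Lyz2 were at 0.068 and 0.059 there and the rest were below 0. The part of other cells in these values was not tested. Col15a1, the relative of Col18a1 among the multiplexins, had a log2 difference of 0.04. Col13a1, Col23a1, and Col25a1, the other transmembrane collagens, were flat.

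The 5 measured type VI chains, which form beaded filaments around cells, had log2 differences from 0.011 to 0.062, above 0 like 66.85% of all genes. Those of Col6a2 and Col6a3 were below 0 with quantile normalization, at -0.014 and -0.0069, and with arrays centred on their median, at -0.0069 and -0.0043. Col6a1 left the 0.1 limit through BTWT replicate 4 alone, at 0.18, whereas Col6a2 and Col6a3, its partners in the trimer, were flat in that mouse at -0.0051 and -0.0052. The 9 fibril-associated chains had log2 differences from -0.29 to 0.034 and none passed before adjustment. Among them Col16a1 reached 0.79 in BTΔMAFF replicate 1, the mouse in which the fibril-forming Col5a1 reached 0.34. The other Col5a1 probe sets were at -0.011 and -0.014 in that mouse. Col20a1 was at -0.80 in BTWT replicate 1 and 0.43 in BTΔMAFF replicate 4, and its other 3 probe sets had differences of both signs. Its probe set is of a kind (suffix s) whose probes can match several transcripts. Col26a1 was at 0.32 in BTΔMAFF replicate 4 and between -0.062 and 0.047 elsewhere.

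Genes that make, cut, and bind collagen were read from the same fit. Of 19 measured genes of chain modification and folding, 1 was higher and none lower before adjustment, against 2.35% and 3.37% of all genes. It was P4ha1, a prolyl hydroxylase subunit that stabilizes the helix, at a log2 difference of 0.56 (standard error 0.22). It missed the threshold under 8 alternatives: with the methods' test, with quantile normalization, at 0.49, without both arrays that stood apart, at 0.48, and without BTWT replicate 1, 2, or 3 or BTΔMAFF replicate 3 or 4, at 0.40 to 0.59. Its other probe set was at 0.23 and did not pass. Serpinh1, the collagen chaperone Hsp47, was at a log2 difference of 0.085. Of 11 genes of propeptide cleavage and crosslinking and 18 of collagen breakdown, 0 passed, and Lox, the crosslinking enzyme lysyl oxidase, was at 0.02 and flat. Most of these genes were flat, 7 of 11 and 12 of 18.

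Calls among the collagen receptors and the basement membrane partners were all lower in BTWT. Of 10 receptors none was higher and 1 was lower before adjustment, against 2.35% and 3.37% of all genes. It was Ddr1, a receptor tyrosine kinase of epithelia that collagen activates. Ddr1 was at -0.51, -0.21, -0.56, and -0.069 in BTWT and at 0.66, 0.069, 1.10, and 0.68 in BTΔMAFF, so that every BTWT mouse lay below every BTΔMAFF mouse, as for 1.84% of all genes. The log2 difference was -0.97 (standard error 0.22, adjusted p = 0.475 from limma), and with single mice left out it was between -1.15 and -0.81. Ddr1 has 7 further probe sets, 5 of them below 0 and 2 at 0.01, and the mean over all gave -0.26. Those at -0.60 and -0.36 also passed before adjustment, and the others did not. Itga1 and Itga2, subunits of collagen-binding integrins, were at -0.17 and 0.19, and neither passed.

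Of 15 basement membrane partners none was higher and 3 were lower before adjustment, against 2.35% and 3.37% of all genes. Agrn, the heparan sulfate proteoglycan agrin, was at -1.09, -0.72, -0.94, and -0.18 in BTWT and at 1.14, 0.68, 0.18, and 0.92 in BTΔMAFF. Its groups did not overlap, as for the 1.84% of all genes lower in every BTWT mouse (log2 difference -1.46, standard error 0.27, adjusted p = 0.291 from limma), and its other probe set was at -1.02. Plec and Itgb4, which encode plectin and the integrin beta chain of hemidesmosomes, had log2 differences of -0.77 and -0.71. Itgb4 missed the threshold without both arrays that stood apart, at -0.70. The list's median log2 difference was -0.17 and its mean value per mouse was between -0.31 and -0.062 in BTWT and between 0.10 and 0.30 in BTΔMAFF, while the collagen family's median was 0.02.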

How the data were processed

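Gene expression of sorted colonic epithelial cells was measured on Affymetrix mouse genome arrays, 1 per mouse (4 BTWT and 4 BTΔMAFF), after cDNA amplification. The authors deposited log2 values from which the median of the 8 arrays had been subtracted for each probe set. Affymetrix Expression Console is named in the submitters' processing notes and GeneSpring in the methods. How probe sets were summarized and normalized before that is not given in the sources used here. As the values carry no level, no filter on dim probe sets could be made.

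Without the 64 control probe sets, 45037 entered a linear model of group alone (limma 3.58.1, R 4.3.3, eBayes), as BTWT minus BTΔMAFF. P-values were adjusted over all of them by Benjamini-Hochberg, with a threshold of 0.05. Genes came from the array annotation (34945 probe sets with 1 gene, 932 with several, 9160 with none), and all 42 collagen genes were matched by gene ID to RefSeq, GRCm38.p6. Of 44 collagen genes listed by class, 2 had no probe set with 1 gene. The members, lists, and rule for named genes (collagens that passed or did not overlap, the extremes of difference and SD, set chains of types I, III, IV, VI, VII, VIII, XVII, and XVIII, up to 4 passing members of smallest p per list, and set enzymes and markers) were chosen with earlier results of these data known. Genes of the lists and collagens outside the rule, such as Dpt, Fap, Csf1r, Itga1, and Itga2, were named after their values were seen. The limit of 0.1 was also set after values were seen. Antibiotic-treated mice were kept in ventilated cages, per the methods, and which mice shared a cage is not given in the sources used here. A difference between cages therefore could not be separated from one between the strains. The p-values measure only the spread between these mice. Precision is limited by how few arrays there are.

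Alternatives were quantile normalization, centring, array weights, a replicate block, a robust prior, the methods' unpaired test, an SD filter, averaged probe sets, and leaving out arrays.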

Additional observations from a re-analysis of the deposited data

Results flagged for a closer look

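In several of the genes described, 1 mouse lay far from the other 3 of its group. Of 68 groups examined, 6 held such a mouse, and about 1 in 20 groups is flagged without any cause. Col1a2 was flagged in both groups, at 0.86 in BTWT replicate 4 and at 1.93 in BTΔMAFF replicate 2 (centred log2 values). These mice were also highest in their groups for Dpt and, on the probe set that represented it, for Dcn. Col7a1 was flagged through BTΔMAFF replicate 3 at 0.44. BTΔMAFF replicate 4, one of the arrays that stood apart, was flagged for Col4a5 at 0.15, Col8a2 at 0.089, and Serpinh1 at 0.15, in groups whose whole range was at most 0.24.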

How the results depend on the processing

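Col8a1 was higher in BTWT before adjustment under every alternative run, with log2 differences between 0.97 (averaged probe sets) and 3.10 (without BTΔMAFF replicate 1), and 0 collagen genes passed the adjusted threshold under any of them; taken alone, 1 of its other probe sets did not pass. The number of collagen genes lower, 0 in the fit reported, was 1 with quantile normalization, with arrays centred on their median (Col4a2 in both), with the SD filter, with averaged probe sets (Col3a1 in both), and with the replicate block (Col20a1), and it ranged from 0 to 1 when single arrays were left out. The number higher, 1 in the fit reported, was 3 without both arrays that stood apart and ranged from 1 to 3 with single arrays left out, with 2 without BTWT replicate 2 and 3 without BTΔMAFF replicate 4. Array weights gave 10 higher and 3 lower; BTWT replicate 3 then weighed 4.68 and BTΔMAFF replicate 2 4.36, and no other array more than 1.33. The number past both the unadjusted threshold and a fold change of 2 was 1 in the fit reported. It was 3 with array weights, 2 with the SD filter, 0 with averaged probe sets, and from 1 to 2 with single arrays left out. The median log2 difference of the family was between 0.0089 and 0.052 with single arrays left out; it was 0.0059 with quantile normalization, 0.0046 with arrays centred on their median, against 0.023 as deposited, and -0.29 with the SD filter, which left 9 of 42 genes. A limit of 0.05 in place of 0.1 around the array median, chosen after seeing the data, left 14 flat genes and one of 0.2 left 26. Over all probe sets, the unadjusted calls rose from 1007 higher and 1288 lower to 2674 and 1823 without BTΔMAFF replicate 4, to 3121 and 1624 without both arrays that stood apart, and to 7429 and 4104 with array weights. The unadjusted calls were 668 and 849 with averaged probe sets, where probe sets with several genes or none were kept single beside the gene means. Unadjusted calls that also passed a fold change of 2 were 118 higher and 129 lower in the fit reported. They were 274 and 402 with array weights, 57 and 70 with averaged probe sets, and 129 and 204 without BTΔMAFF replicate 4. Adjusted calls, 0 in the fit reported, were 510 with array weights, 25 with the SD filter, and at most 6 otherwise. The replicate block changed no other collagen call. Deviations of same-numbered arrays from their group means had correlations of 0.392, -0.0404, 0.0326, and -0.266. Only for replicate 1 was the same-numbered array the closest one of the other group. So few correlations cannot settle whether the numbers pair the mice. The beta-actin control difference was -0.071 (exact permutation test, p = 0.0857), the same sign as Gapdh. Where a call changed, the cause was not tested.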
